A study of Mus musculus with 5 samples.

Results

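The RNAs described here are 10 gene rows of a mouse acinar cell RNA-seq series: Rn45s, Lars2, Malat1, Neat1, Kcnq1ot1, Meg3, Rmrp, Rpph1, Snord17 and Mir5109. These 10 rows, of 23284 in each count table, were taken by gene symbol. Among them are the ribosomal RNA precursor and a row that moves with it, 4 long RNAs that stay in the nucleus, and 4 rows grouped here as RNAs without a poly(A) tail. For Mir5109 in that group the lack of a tail is assumed, since the RNA that gives its reads is not stated. The rows were selected on their counts and shares in these same libraries, so their differences between the groups are described and not tested.

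The libraries came from acinar cell preparations of the pancreas of C57BL/6 mice aged 8 weeks. The control group held 2 libraries of genotype p48-Cre, and the knockout group 3 libraries of genotype Arid1afl/fl;p48-Cre. Both groups thus carry Cre, which is driven from p48 (Ptf1a), a gene of pancreatic progenitors and acinar cells, and only the knockout group carries floxed alleles of the chromatin remodelling gene Arid1a. The cells were enzymatically dissociated, strained and rested in serum-containing medium without a sorting step, and mRNA was bound to beads for a TruSeq RNA v2 library. The labels do not say whether each library came from its own mouse, so a p-value takes in no more than library-to-library spread, possibly technical. In bulk RNA, fewer cells of a type and less RNA per cell cannot be told apart.

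Most of the RNA in a cell is ribosomal, cut from a single long precursor that RNA polymerase I makes in the nucleolus. A library from bead-bound mRNA is meant to leave it out, because the beads carry oligo-dT and ribosomal RNA has no poly(A) tail. Small structured RNAs such as RNase P RNA, RNase MRP RNA and small nucleolar RNAs also end without such a tail. Nuclear long RNAs are mixed in this respect: Meg3 and the short form of Neat1 are polyadenylated, whereas Malat1 and the long form of Neat1 are cut by RNase P and keep an A-rich stretch encoded in the genome.

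The 3′ ends of the reference RNAs are shown because this is where the classes differ; the Malat1 model runs past the RNase P site. The last 60 bases of the longest GENCODE M21 (GRCm38) transcript of each are printed 5′ to 3′, with the hexamer AATAAA, a common signal for cleavage and polyadenylation, in capitals; for Neat1 the short form is added.
Malat1: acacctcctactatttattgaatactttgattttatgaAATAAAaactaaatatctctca
Neat1, long form: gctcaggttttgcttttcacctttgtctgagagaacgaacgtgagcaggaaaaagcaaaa
Neat1, short form: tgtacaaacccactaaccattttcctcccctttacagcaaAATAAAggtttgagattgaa
Kcnq1ot1: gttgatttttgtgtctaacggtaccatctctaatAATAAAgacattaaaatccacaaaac
Meg3: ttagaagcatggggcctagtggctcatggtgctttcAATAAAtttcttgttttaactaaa
Rmrp: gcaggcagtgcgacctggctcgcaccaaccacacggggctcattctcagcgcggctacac
Rpph1: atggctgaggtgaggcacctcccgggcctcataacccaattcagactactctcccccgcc
Snord17: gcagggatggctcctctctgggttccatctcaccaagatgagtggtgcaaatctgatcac
The hexamer was searched on the RNA strand only. It was found in Malat1, Kcnq1ot1, Meg3 and the short form of Neat1, and these letters are not in the window of the long form of Neat1, Rmrp, Rpph1 or Snord17. Among all GENCODE transcripts of at least 60 bases, the last 60 bases hold it in 41.1% of 58781 protein-coding, 31.1% of 9100 lincRNA and 0.533% of 1502 snoRNA transcripts.

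Malat1 and the long form of Neat1 share another stretch, shown here because it stands in for the poly(A) tail after RNase P cleavage. The 100 bases that end in AAAAAGCAAAA, the last 11 bases of the long form of Neat1, are printed, with that motif and the longest run common to both windows, 16 bases, in capitals.
Malat1: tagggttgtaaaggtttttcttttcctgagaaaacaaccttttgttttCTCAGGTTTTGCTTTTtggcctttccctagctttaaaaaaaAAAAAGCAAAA
Neat1, long form: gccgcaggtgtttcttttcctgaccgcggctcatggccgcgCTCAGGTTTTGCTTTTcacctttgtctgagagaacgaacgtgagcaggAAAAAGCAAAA
In Malat1 the motif ends 292 bases before the end of the GENCODE model, and in Neat1 it is the end of the model. On the RNA strand, 0.137% of 8047 lincRNA transcripts of at least 400 bases hold AAAAAGCAAAA in their last 400 bases. The longest run of A anywhere in the transcript was 41 bases in Kcnq1ot1, 16 in Meg3, 12 in Malat1 and 7 in the long form of Neat1.

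The small RNAs hold no such run. Snord17, a box C/D small nucleolar RNA that guides methylation of ribosomal RNA, is printed with box C (ATGATGA) and box D (CTGA) in capitals, and Rmrp with its longest run of A in capitals; Rpph1 is longer and only its end is shown.
Snord17: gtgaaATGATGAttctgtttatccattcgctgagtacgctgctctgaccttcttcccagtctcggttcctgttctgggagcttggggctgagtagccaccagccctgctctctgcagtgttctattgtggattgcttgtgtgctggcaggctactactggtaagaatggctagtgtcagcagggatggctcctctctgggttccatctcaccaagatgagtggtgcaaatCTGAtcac
Rmrp: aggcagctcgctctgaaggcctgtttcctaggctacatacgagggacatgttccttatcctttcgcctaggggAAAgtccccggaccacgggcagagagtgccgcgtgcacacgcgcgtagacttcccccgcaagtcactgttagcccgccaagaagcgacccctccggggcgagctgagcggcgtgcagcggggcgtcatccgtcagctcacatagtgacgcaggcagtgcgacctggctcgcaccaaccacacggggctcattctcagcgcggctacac
The models of Snord17, Rmrp and Rpph1 are 238, 281 and 319 bases long, with longest A runs of 3, 3 and 2 bases. In Snord17 the box C letters start at base 6 and box D ends 4 bases before the end. Both boxes, within 30 bases of their ends and on the RNA strand, are found in 17.1% of 1507 GENCODE snoRNA transcripts. No sequence is given for Rn45s and Mir5109.

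In all, 291677 and 589798 counts were deposited for the controls, and 3471701 to 4049215 for each knockout. The 10 rows together took 77.3% and 88.1% of the control counts and 7.36% to 12.0% of the knockout counts. Without Rn45s and Lars2, 67514 and 72006 counts were left in the controls and 3155357 to 3568906 in the knockouts. All CPM values below take those remaining counts as the total. A floor of 3 counts equals 44.4 and 41.7 CPM in controls 1 and 2 and 0.841 to 0.951 CPM in the knockouts. Library depth and the share of Rn45s split the libraries just as genotype does, and for every group difference given here these cannot be told apart. Of 8 acinar markers 7 had counts, and they made up 27.1% to 36.0% of the remaining counts in the 5 libraries; Amy2a5 was at 0 in all. Arid1a itself had 0 and 3 counts in the libraries labelled control and 44, 121 and 42 in those labelled knockout, or 0 and 41.7 CPM against 13.9, 33.9 and 12.6 CPM. The groups overlapped in CPM and both controls were at or under the floor, so Arid1a counts give no check of the labels, and directions below rest on the labels alone.

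Rn45s, the 45S ribosomal RNA precursor, was the most abundant of the 10 rows in every library. It held 211814 and 484707 counts in controls 1 and 2 and 295200, 442800 and 244682 in the knockouts. As a share of all counts this was 72.6% and 82.2% in controls 1 and 2, against 8.50%, 10.9% and 6.78% in the knockouts. The groups did not overlap in share, and the raw counts did. The control mean of 77.4% ± 6.76 (SD, n = 2) was 8.86 times the knockout mean of 8.74% ± 2.09 (SD, n = 3). In CPM, Rn45s stood at 3137334 and 6731481 in controls 1 and 2 and 93555, 124072 and 73146 in the knockouts, a 50.9-fold difference of the means. On the log2 scale this is -5.67, and -5.02 without control 2.

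Lars2 encodes the mitochondrial leucyl-tRNA synthetase, which charges leucine for the mitochondrial ribosome. Its row held 12349 and 33085 counts in controls 1 and 2 and 21144, 37509 and 19296 in the knockouts, or 4.23% and 5.61% of all counts against 0.609%, 0.926% and 0.535%. For each 1000 Rn45s counts there were 58.3 and 68.3 Lars2 counts in controls 1 and 2 and 71.6, 84.7 and 78.9 in the knockouts. That ratio varied by 1.45-fold over the 5 libraries, and all 3 knockouts lay above both controls, by 0.31 on the log2 scale. Of the 41 genes with at least 30 counts in every library, Rn45s included, Lars2 had the smallest spread of its log2 ratio to Rn45s, with an SD of 0.207.

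**Figure D1:**
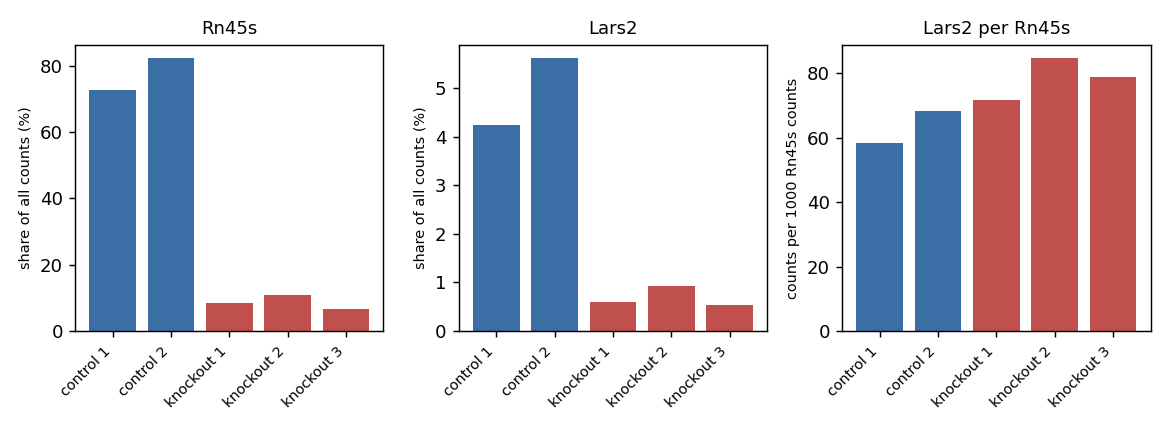
Bars show, for each of the 5 libraries, the share of all counts in percent taken by Rn45s (left) and Lars2 (middle), and Lars2 counts per 1000 Rn45s counts (right); blue is control and red is knockout. Both shares are higher in the 2 controls, while Lars2 per Rn45s lies between 58.3 and 84.7 in all libraries.

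The other enzymes that charge mitochondrial tRNAs had far fewer counts. The 16 further mitochondrial synthetase genes together held 16 and 2 counts in controls 1 and 2 and 196, 396 and 181 in the knockouts. Fars2, for phenylalanine, had the highest mean CPM among them, with 6 and 0 control counts and 19, 42 and 64 knockout counts. Lars, the cytosolic leucyl-tRNA synthetase, had 3 and 0 counts against 105, 136 and 80. Lars2 thus stood far above its family in every library, and in the controls by more.

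After Lars2, the rows with the steadiest ratio to Rn45s were Rmrp, Mir5109, Rpph1 and Malat1, all members too. Their log2 ratios had SDs of 0.676, 0.683, 0.870 and 1.34 over the 5 libraries, and the next gene, the elastase Cela2a, had 1.72. Kcnq1ot1 and Snord17 were under the 30-count minimum in some libraries. Without that minimum Kcnq1ot1 had an SD of 0.330, below all of these but Lars2, and Snord17 one of 0.739. Genes under the minimum that are not members were not ranked. These spreads describe 5 libraries that share Rn45s as the denominator.

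Mir5109 is annotated as a microRNA gene, and which RNA gives the reads of its row is not stated in the sources used here. It held 898 and 975 counts in controls 1 and 2 and 2162, 2250 and 1142 in the knockouts. These equal 13301 and 13541 CPM in controls 1 and 2 and 685, 630 and 341 CPM in the knockouts. Both controls were within 1.02-fold of each other, and their mean was 24.3 times the knockout mean. Mir5109 was far the largest of the 621 microRNA rows, of which 579 had no count in any library. The other 620 rows summed to 7 and 18 counts in controls 1 and 2 and 159, 223 and 261 in the knockouts.

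Rmrp, the RNA of RNase MRP, which cuts the ribosomal RNA precursor in its first internal spacer, had 33 and 273 control counts and 75, 101 and 61 knockout counts. In CPM it stood at 489 and 3791 in controls 1 and 2, and at 23.8, 28.3 and 18.2 in the knockouts. Control 2 was thus 7.76 times control 1, a wider gap than among the knockouts, where the highest was 1.55 times the lowest. The mean was 2140 ± 2335 CPM (SD, n = 2) against 23.4 ± 5.04 CPM (SD, n = 3), a 91.3-fold difference, and both controls lay above all knockouts. The log2 ratio of the knockout to the control mean, -6.51, was -4.38 without control 2 and -7.34 without control 1.

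Rpph1, the RNA of RNase P, which trims the 5′ ends of tRNAs, had 151 and 307 control counts and 62, 134 and 208 knockout counts. Its CPM values were 2237 and 4264 in controls 1 and 2 and 19.6, 37.5 and 62.2 in the knockouts. The controls were again apart from the knockouts, with means that differed by 81.7-fold. Knockout 3, the lowest knockout for Rmrp, was the highest for Rpph1.

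Snord17 had 42 counts in each control and 15, 29 and 22 in the knockouts. This gave 622 and 583 CPM against 4.75, 8.13 and 6.58 CPM, a 92.9-fold difference of the means, close to that of Rmrp. The RefSeq table places Snord17 inside Snx5, a sorting nexin gene, whose spliced intron is the usual source of such a snoRNA. Snx5 had 1 count in each control and 133, 231 and 71 in the knockouts. Snord17 therefore exceeded its host by 42 to 1 in both controls, and stood at 0.113, 0.126 and 0.310 per Snx5 count in the knockouts.

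Malat1, a long RNA of nuclear speckles, was the most abundant of the 4 long RNAs in the controls. It had 120 and 143 control counts and 391, 1459 and 149 knockout counts. In CPM it stood at 1777 and 1986 in controls 1 and 2 and at 124, 409 and 44.5 in the knockouts. The groups did not overlap, and the means of 1882 ± 147 (SD, n = 2) and 192 ± 192 CPM (SD, n = 3) differed by 9.78-fold. The knockouts spread by 9.18-fold, with knockout 2 the highest, and without it the log2 ratio of the means went from -3.29 to -4.48.

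Neat1, the scaffold of paraspeckles, was the member whose groups overlapped in CPM. It had 29 and 2 control counts and 430, 622 and 160 knockout counts, so 430 and 27.8 CPM against 136, 174 and 47.8 CPM. Control 1 lay above every knockout and control 2 below every knockout. The log2 ratio of the knockout to the control mean was -0.94, and 2.105 without control 1. With 2 counts, control 2 had an exact 95% binomial interval of 3.36 to 100 CPM, for counting error only. Neat1 and its chromosomal neighbour Malat1 differed most in control 2, where 143 counts of Malat1 stood against 2 of Neat1.

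Kcnq1ot1, the antisense RNA that silences an imprinted cluster around Kcnq1, had 17 and 34 control counts and 21, 33 and 11 knockout counts. It stood at 252 and 472 CPM in controls 1 and 2 and 6.66, 9.25 and 3.29 CPM in the knockouts. The difference of the means, 56.6-fold, was nearer to those of Rmrp, Rpph1 and Snord17 than to that of any other long RNA. Kcnq1, on the other strand, had no control count and 34, 184 and 21 knockout counts, or 10.8, 51.6 and 6.28 CPM. The kit does not mark strand, so reads of the pair cannot be told apart where they overlap.

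Meg3, a maternally expressed imprinted RNA, had 5 counts in each control and 29, 183 and 36 in the knockouts. In CPM it stood at 74.1 and 69.4 in the controls, not far above the floor, and at 9.19, 51.3 and 10.8 in the knockouts. The groups did not overlap, but the exact 95% interval of control 2, from 22.5 to 162 CPM, took in knockout 2. The log2 ratio of the means, -1.60, was -2.85 without knockout 2. Dlk1, its paternally expressed neighbour, had 0 and 9 control counts and 1, 5 and 1 knockout counts.

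**Figure D2:**
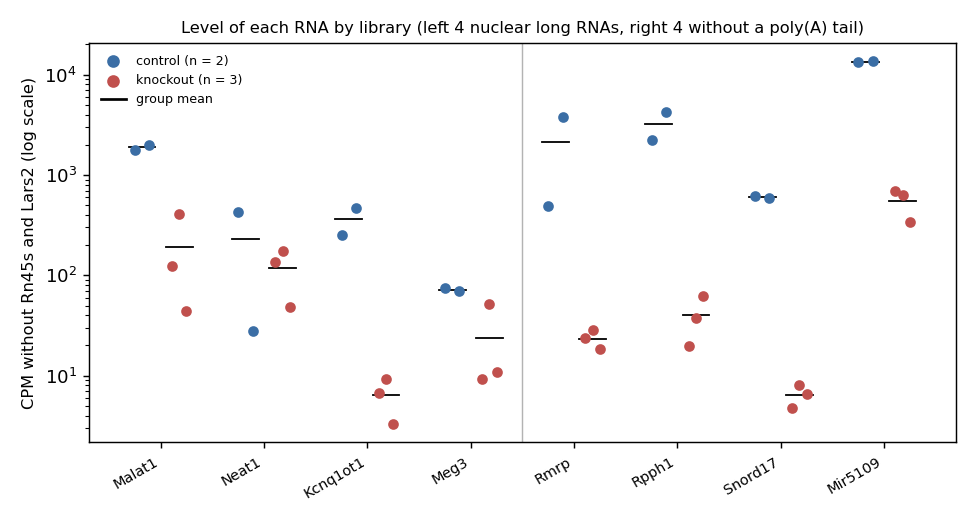
Points show the CPM of 8 RNAs in each library on a log scale, on the total without Rn45s and Lars2, with controls in blue, knockouts in red and group means as lines. The 4 RNAs without a poly(A) tail and Kcnq1ot1 have both controls far above all knockouts, whereas the groups of Neat1 overlap.

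In CPM, 9 of the 10 members had both controls above all 3 knockouts, and among all 8261 tested genes 11% did so and 37% lay apart in the other direction. As a share of all counts, 7 of 10 were apart in that way, where the background was 1.99% lower and 54.3% higher in the knockouts. Malat1, Neat1 and Meg3 were the 3 that overlapped: the Malat1 share was 0.0411% and 0.0242% in controls 1 and 2 and 0.0113%, 0.0360% and 0.00413% in the knockouts. Per Rn45s count, none of the 10 was apart with lower knockouts and 5 were apart with higher ones, against 0.218% and 86.5% of all tested genes. These were Lars2, Malat1, Neat1, Meg3 and Mir5109. Lars2, Malat1, Meg3 and Mir5109 were thus lower in the knockouts in CPM and higher per Rn45s count. On each scale, the 2902 tested genes without a control count could lie apart only with higher knockouts, whereas all 10 members had control counts. The rule that picked the members used these libraries, so nothing is read from the counts.

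Set against Rn45s, the long RNAs split. For each 1000 Rn45s counts Neat1 had 0.137 and 0.00413 counts in controls 1 and 2 and 1.46, 1.40 and 0.654 in the knockouts. Meg3 had 0.0236 and 0.0103 in controls 1 and 2 and 0.0982, 0.413 and 0.147 in the knockouts. Both were higher in every knockout than in any control, by 16.6-fold and 12.9-fold of the means. Malat1 followed at 4.05-fold, with 0.567 and 0.295 in controls 1 and 2 and 1.32, 3.29 and 0.609 in the knockouts, so that knockout 3 was close to control 1. Relative to the median edgeR log2 fold change of all tested genes, Neat1, Meg3 and Malat1 stood at -1.27, -2.11 and -3.94. Per Rn45s count, 86.5% of all tested genes were also apart with higher knockouts.

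Kcnq1ot1 stood apart from those 3 long RNAs on this scale. It had 0.0803 and 0.0701 counts per 1000 Rn45s counts in controls 1 and 2 and 0.0711, 0.0745 and 0.0450 in the knockouts, a 1.79-fold range over all 5 libraries. Rmrp, Rpph1 and Snord17 ranged over 3.62-fold, 4.05-fold and 3.90-fold, with overlapping groups and lower knockout means. Mir5109 ranged over 3.64-fold, and its knockouts, at 7.32, 5.08 and 4.67, lay above both controls, at 4.24 and 2.01.

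**Figure D3:**
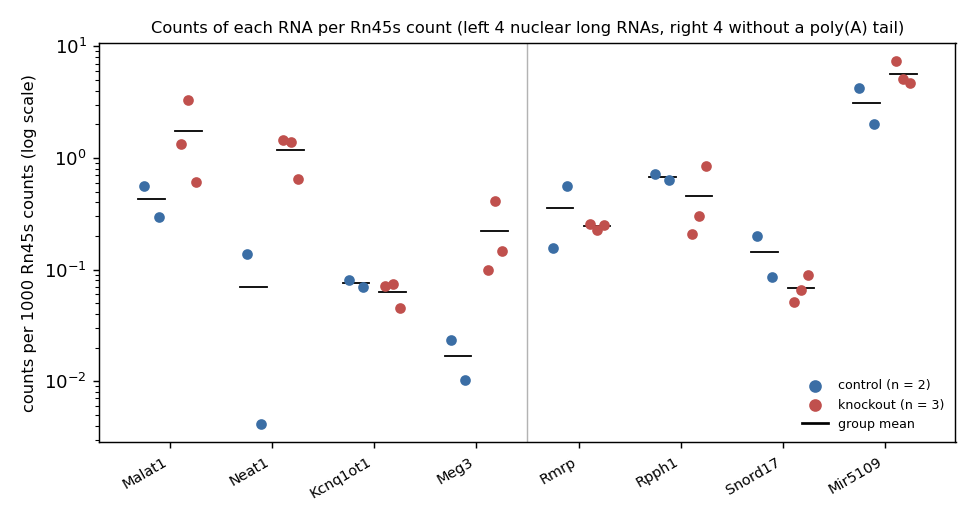
Points show the counts of 8 RNAs per 1000 Rn45s counts in each library on a log scale, with controls in blue, knockouts in red and group means as lines. Neat1 and Meg3 are higher in all 3 knockouts, and the groups of Kcnq1ot1, Rmrp, Rpph1 and Snord17 overlap.

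The 2 classes can be compared within a library, where scaling plays no part. Malat1, Neat1, Kcnq1ot1 and Meg3 summed to 171 and 184 counts in the controls, and Rmrp, Rpph1, Snord17 and Mir5109 to 1124 and 1597. In the knockouts the long RNAs summed to 871, 2297 and 356 counts and the RNAs without a tail to 2314, 2514 and 1433. There were thus 0.152 and 0.115 long RNA counts per count of RNA without a tail in controls 1 and 2, and 0.376, 0.914 and 0.248 in the knockouts. All 3 knockouts lay above both controls. The mean log2 ratio was -2.92 ± 0.28 (SD, n = 2) in the controls and -1.18 ± 0.96 (SD, n = 3) in the knockouts, a difference of 1.73.

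Mir5109, whose lack of a tail is assumed, was the largest part of the tail-less sum in every library. The ratio was therefore also formed without Mir5109. It then stood at 0.757 and 0.296 in controls 1 and 2 and 5.73, 8.70 and 1.22 in the knockouts. Without Malat1, the largest of the long RNAs in the controls, it was 0.0454 and 0.0257 against 0.207, 0.333 and 0.144. The groups did not overlap in either version, and knockout 3 was the lowest knockout in both.

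The 16 single pairs of a long RNA and an RNA without a tail were less uniform. All 8 pairs with Neat1 or Meg3 were higher in every knockout than in both controls. Of the 4 pairs with Malat1 only that with Snord17 was, at 2.86 and 3.40 against 26.1, 50.3 and 6.77. Of the 4 pairs with Kcnq1ot1, 3 overlapped, and per Mir5109 count Kcnq1ot1 was lower in the knockouts, at 0.0189 and 0.0349 against 0.00971, 0.0147 and 0.00963. The Neat1 pairs rest on 29 and 2 control counts of that RNA, and the Meg3 pairs on 5 in each control. No share over all genes was formed for such pairs. Per Rn45s count, 86.5% of all tested genes were apart with higher knockouts.

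**Figure D4:**
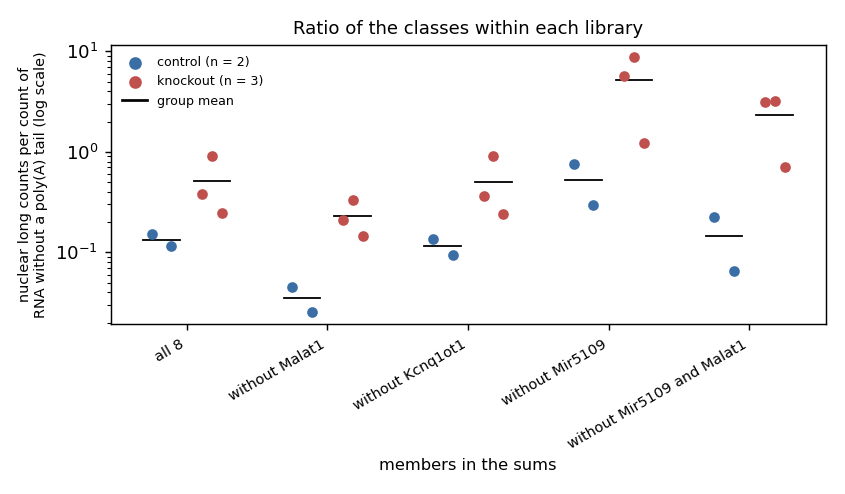
Points show, on a log scale, the summed counts of the nuclear long RNAs over those of the RNAs without a poly(A) tail in each library, for all 8 RNAs and with named members left out; controls are blue, knockouts red, lines are group means. With all 8 the controls lie at 0.115 and 0.152 and the knockouts from 0.248 to 0.914.

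In the edgeR quasi-likelihood test across all 8261 tested genes, with Benjamini-Hochberg adjustment, 2 of the 10 members were called lower in the knockout, Kcnq1ot1 and Snord17, where 0.291% of all tested genes were. None was called higher, where 0.0484% of all genes were; 7 of the 10 had an unadjusted p under 0.05, as did 34.4% of all tested genes. DESeq2 called 8 lower and 0 higher, beside 10.3% lower and 12.2% higher among the 5369 genes to which it gave an adjusted p. All 10 passed the low-count filter. The fitted log2 fold changes had a median of -3.65 over the members, -0.97 over the 4 long RNAs and -4.31 over the 4 RNAs without a tail, beside 2.05 over all tested genes. Neat1 was the one member above 0, at 0.77, and under upper quartile factors it was below 0, at -0.52; Meg3 stood at -0.06, and at 0.23 with no low-count filter. Neither member lost nor gained a call by this. Upper quartile factors moved the median over all tested genes from 2.05 to 0.46, and changes are read relative to it. Over all genes the 4 higher and 24 lower calls became 147 and 72 with TMM factors from counts without Rn45s and Lars2. The calls of Kcnq1ot1 and Snord17 were lost without control 2 (adjusted p 0.0899 and 0.0920, edgeR) and without knockout 1 (both 0.132, edgeR). The same contrast chose the members, so these calls support nothing.

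Further small RNAs without a tail were taken by name: Snord, Snora, Scarna, Rnu, Rny and Vaultrc rows, Rn7sk and Terc. Apart from members there were 118, of which 11 had a count in a control. They summed to 29 and 53 counts in controls 1 and 2 and 91, 181 and 63 in the knockouts, or 430 and 736 CPM against 28.8, 50.7 and 18.8 CPM. The 2 groups did not overlap, and the means differed by 17.8-fold. Snord22 had 16 and 9 control counts and 9, 39 and 5 knockout counts, and Vaultrc5, a vault RNA, 3 and 7 against 7, 2 and 4. Snord15a had 0 and 16 control counts and 3, 2 and 0 knockout counts. Of the 3 rows tested by edgeR none was called, and 2 had an unadjusted p under 0.05, a share of 34.4% over all tested genes. Among all 118 rows DESeq2 called 4 lower and none higher. Over the 5369 genes with a DESeq2 adjusted p these shares were 10.3% and 12.2%. How many of the 118 rows had one was not counted, so the shares cannot be compared.

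Replication-dependent histone mRNAs end in a stem-loop and not in a poly(A) tail, and whether their groups overlapped turned on 1 gene. Their 68 rows summed to 311 and 208 CPM in controls 1 and 2 and 154, 294 and 106 CPM in the knockouts, with overlapping groups. Hist1h1c, a linker histone, had 8 and 2 control counts and 287, 670 and 177 knockout counts. Without Hist1h1c the other 67 rows summed to 193 and 181 CPM in controls 1 and 2 and 62.8, 106 and 53.2 CPM in the knockouts. The groups then did not overlap, and the control mean was 2.52 times the knockout mean. These control sums rest on 13 counts each. Hist1h1e, another linker histone, had 6 in each control and 33, 29 and 33 in the knockouts, which is 88.9 and 83.3 CPM against 10.5, 8.13 and 9.87 CPM. It was the 1 row of the 6 tested with a fitted log2 fold change below 0, at -1.11. The median over the 6 was 4.57, beside 2.05 over all tested genes. Hist1h2bc had 0 counts in each control and 62, 151 and 24 in the knockouts. The 7 variant histone genes with polyadenylated mRNAs summed to 163 and 236 CPM in controls 1 and 2 and 416, 715 and 166 CPM in the knockouts. None of the 6 tested rows in either histone list was called by edgeR, with 3 and 4 at an unadjusted p under 0.05 (34.4% of all tested genes). Over all 68 and 7 rows of the lists, DESeq2 called 2 higher in each (12.2% of all genes with a DESeq2 adjusted p). Of the 6 tested rows, 3 of the replication-dependent list and 2 of the polyadenylated list had no control count.

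Genes that work with the members were followed in 10 lists of 116 genes in all, 111 of them in the tables. Of 75 tested by edgeR, none was called in either direction and 31 had an unadjusted p under 0.05. Among all 111 genes, DESeq2 called 7 higher and 1 lower. Over all tested genes 34.4% had an unadjusted p under 0.05 (edgeR). DESeq2 called 12.2% higher and 10.3% lower among the 5369 genes to which it gave an adjusted p. How many of the 111 were among these was not counted. The median log2 CPM ratio over the 75 was -0.70, beside -1.15 over all tested genes, with the 26 and 2902 genes without a control count set at the floor of 3 counts in both controls, 21.5 CPM.

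Hosts of snoRNAs, which are spliced and polyadenylated, had the opposite order to the snoRNAs in CPM. Their 12 rows summed to 59.2 and 27.8 CPM in controls 1 and 2 and 278, 385 and 74.4 CPM in the knockouts, and the groups did not overlap. Gas5, a long RNA that hosts box C/D snoRNAs, had 2 and 0 control counts and 304, 447 and 79 knockout counts. Snhg1, of the same kind, had 0 and 1 against 153, 269 and 39. None of the 8 tested hosts was called by edgeR, and all 8 had an unadjusted p under 0.05, where 34.4% of all tested genes did. Over all 12 rows DESeq2 called 1 higher, where 12.2% of all genes with a DESeq2 adjusted p were. Of the 8 tested hosts, 4 had no control count and passed the low-count filter through the knockouts alone, so nothing is read from these shares. The control sums rest on 4 and 2 counts.

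The protein partners of Rpph1 and Rmrp had no control count. The 10 protein genes of RNase P and RNase MRP were at 0 in each control and 55.8, 89.4 and 47.5 CPM in the knockouts, whereas their RNAs, Rpph1 and Rmrp, were counted in both controls. Pop5 had 69, 119 and 77 knockout counts, and Rpp21 had 53, 81 and 54. The floor, 3 counts over the list, is 44.4 and 41.7 CPM in the controls, below each of those sums. None of the 3 tested genes was called by edgeR, and 2 had an unadjusted p under 0.05, where 34.4% of all tested genes did. Over all 10 genes DESeq2 called 1 higher, where 12.2% of all genes with a DESeq2 adjusted p were. All 3 tested genes passed the low-count filter through the knockouts alone, so nothing is read from these numbers. The snoRNA-binding proteins, led by Nhp2, summed to 118 and 333 CPM in controls 1 and 2 and 157, 189 and 99.0 CPM in the knockouts.

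RNA polymerase I subunits and factors, which make Rn45s, summed to 118 and 417 CPM in controls 1 and 2 and 219, 356 and 92.1 CPM in the knockouts. Ribosomal RNA processing genes summed to 267 and 611 against 490, 810 and 198 CPM. Both lists overlapped between groups. Polr1d, a subunit shared by polymerases I and III, had 14.8 and 83.3 CPM in controls 1 and 2 and 71.0, 76.8 and 26.6 CPM in the knockouts. Ncl, nucleolin, had 59.2 and 83.3 CPM in controls 1 and 2 and 228, 384 and 107 CPM in the knockouts. Sums of both lists ranged far less over the libraries than Rn45s did in CPM.

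Paraspeckle and speckle proteins, partners of Neat1 and Malat1, summed to 474 and 680 CPM in controls 1 and 2 and 236, 522 and 81.0 CPM in the knockouts, also with overlap. Sfpq, a core paraspeckle protein, had 148 and 83.3 CPM in controls 1 and 2 and 54.8, 131 and 5.98 CPM in the knockouts. Knockout 3 was lowest for Sfpq, Malat1 and Neat1 alike among the knockouts, and knockout 2 highest. Other nuclear long RNAs were sparse: 10 rows summed to 2 and 1 control counts and 37, 126 and 29 knockout counts, with Peg13 and Tug1 at the top by mean CPM.

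Genes that acinar cells are not known to express were read beside the members. The 1451 olfactory and vomeronasal receptor rows had 102 counts in each control and 37, 70 and 109 in the knockouts. Those control counts were in 25 and 13 rows, with up to 21 counts in 1 row. Per kilobase of the longest GENCODE transcript, the 1425 rows with a length stood at 0.269 and 0.273 CPM in controls 1 and 2 and 0.00220, 0.00378 and 0.00628 CPM in the knockouts. Kcnq1ot1, with 93.1 kb the longest member, stood at 2.70 and 5.07 CPM per kb in controls 1 and 2 and 0.0715, 0.0993 and 0.0353 CPM per kb in the knockouts. It lay above the receptor rows in every library, and both were higher in the controls. The part of such counts in the Kcnq1ot1 value was not tested.

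Per kilobase of transcript the 3 small RNAs with a length stood above all 4 long RNAs in both controls. Rpph1 stood at 7011 and 13365 CPM per kb in controls 1 and 2 and 61.6, 118 and 195 in the knockouts. Rmrp followed at 1739 and 13492 against 84.6, 101 and 64.9, overlapping Rpph1 in the knockouts, and in the controls by its value in control 2. Snord17 stood at 2614 and 2451 CPM per kb in controls 1 and 2 and 20.0, 34.1 and 27.6 in the knockouts. Malat1 was at 255 and 284 CPM per kb in controls 1 and 2 and 17.7, 58.5 and 6.38 in the knockouts, so that it overlapped Snord17 in the knockouts only. Neat1 was at 20.7 and 1.34 in controls 1 and 2 and 6.56, 8.39 and 2.30 in the knockouts, and Meg3 at 5.09 and 4.77 against 0.632, 3.52 and 0.740. Kcnq1ot1 was the lowest member per kilobase in every library but control 2, where Neat1 and Meg3 were lower.

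**Figure D5:**
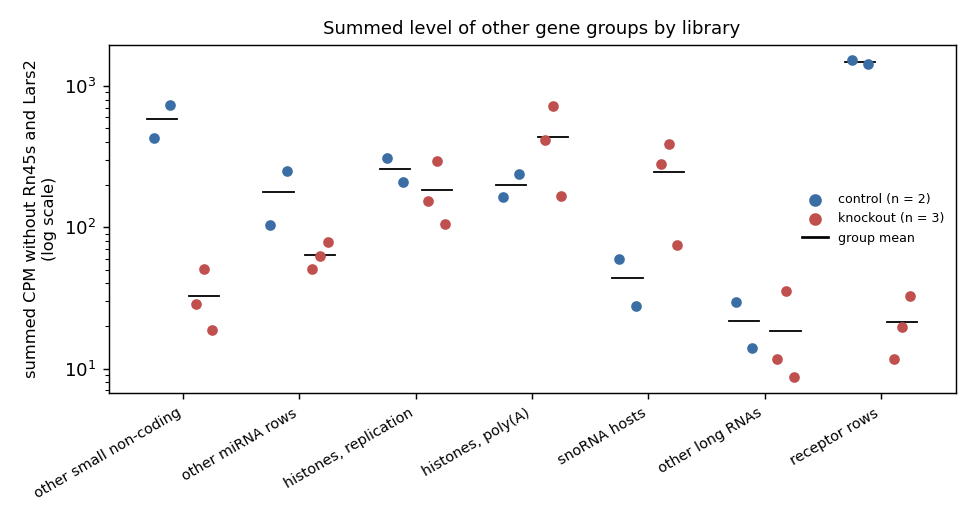
Points show the summed CPM, on a log scale, of 7 other gene groups in each library, on the total without Rn45s and Lars2; controls are blue, knockouts red, lines are group means. Other small non-coding RNAs and receptor rows are higher in both controls, snoRNA hosts are higher in all knockouts, and both histone groups overlap, the replication-dependent one only with Hist1h1c in the sum.

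Markers of other cells the preparation could hold overlapped between the groups. Summed duct markers ranged from 111 to 237 CPM in the controls and 51.4 to 650 CPM in the knockouts, islet markers from 104 to 680 and from 154 to 820 CPM, and immune markers from 27.8 to 163 and from 64.6 to 343 CPM. Stromal and endothelial markers were at 0 and 167 CPM in the controls and from 17.3 to 133 CPM in the knockouts. Control counts came from 3 of 5 duct, 2 of 6 islet, 2 of 6 immune and 1 of 6 stromal and endothelial markers. Sox9, Sst, Ptprc, Pecam1 and Dcn were at 0 in both controls and counted in every knockout. The 5 haemoglobin and erythroid rows were at 0 in all libraries. Knockout 2 was the highest knockout in each of these 4 sums, as it was for Malat1, Neat1, Kcnq1ot1 and Meg3, and the part of those cells in the long RNA values was not tested.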

How the data were processed

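Deposited files give whole-number read counts per gene symbol for 5 libraries, with no normalization by the authors and no row of unassigned reads. Per the submitters' processing notes, the tools were HTSeq 0.9.1, TopHat2 2.1.1, Cuffdiff 2.2.1.5 and Cuffnorm 2.2.1.2 on mm9, with no step given; the treatment of multiply mapping reads, which sets the count of repeated genes such as Rn45s, is not given in the sources used here. No coordinates are printed because no mm9 genome was used here. Members and lists were chosen with earlier results of these data known.

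Counts were expressed as a share of all counts, as CPM on the total without Rn45s and Lars2, and per Rn45s count. Knockout was compared with control with edgeR 4.0.16 (R 4.3.3; TMM, filterByExpr, glmQLFit with robust estimation, group as the only term, two-sided, Benjamini-Hochberg adjusted p under 0.05 over 8261 genes). DESeq2 1.42.0 was an alternative, beside other scalings, other filters, a replicate block and each library left out. On simulated counts with these library sizes (8177 tested genes), the test called 74% of 50 genes raised by 4 on the log2 scale. Of genes lowered by 4, 14 were tested and 78.6% of those were called. At 2, 6% of 50 raised and 5.71% of 35 lowered tested genes were called, and 1 of 8028 unchanged genes was. As many genes were lowered as raised, and those not tested had failed the low-count filter. Each gene was drawn from its mean share over all libraries, with the same dispersion of 0.279. In the data the Rn45s share was 77.4% in the controls and 8.74% in the knockouts, so these rates need not hold there. Replicates of a group differed by far more than sampling noise (chi-square per degree of freedom of at least 27.0), so none was counted as a duplicate. Named genes were all 10 members, of each list the 3 with the highest mean CPM and any called member (up to 4), Snx5 and Lars, and the 5 genes steadiest against Rn45s; not all are printed. Intervals are exact binomial at 95%. Sequences came from GENCODE M21 transcripts, in which 8 of the 10 members were matched by symbol, and the RefSeq miRNA table held none of them.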

Additional observations from a re-analysis of the deposited data

How the results depend on the processing

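Against 4 genes called higher and 24 lower, RLE factors gave 51 lower, upper quartile factors 7 and 283, TMM without Rn45s and Lars2 147 and 72, and totals without both 16 and 135. No low-count filter gave 1076 and 710, a filter of 1 CPM in 2 libraries 336 and 131, and DESeq2 656 and 551. Leaving out 1 library gave 0 to 310 higher and 5 to 163 lower: 0 and 111 without control 1, 0 and 12 without control 2, 6 and 5 without knockout 1, 89 and 46 without knockout 2, 310 and 163 without knockout 3. The cause was not tested. The replicate block gave 23 higher and 2 lower. Under it Kcnq1ot1 and Snord17 were not called (adjusted p 0.679 and 0.147, edgeR), whereas Rn45s and Rpph1 were (0.0275 and 0.00253). Deviations of same-numbered libraries from their group means had r of -0.02 and 0.05. With 2 shallow controls, whose deviations mirror each other, this does not settle whether the numbers pair libraries. Of the members, upper quartile factors called 7 lower and totals without Rn45s and Lars2 8.

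The Neat1 fold change, 0.77, was -0.52 with upper quartile factors, -0.93 with totals without Rn45s and Lars2 and -0.064 (without control 2) to 3.89 (without control 1) with 1 library left out. That of Meg3, -0.06, was 0.23 with no filter, 0.15 with the 1 CPM filter, 0.08 without control 1, 0.20 without knockout 1, and -0.92 without knockout 2, the lowest with 1 library left out; upper quartile factors gave -1.73 and totals without Rn45s and Lars2 -1.59. With all counts as the total, the log2 ratio of mean CPM was 1.06 for Neat1 and 0.73 for Meg3, and for Neat1, at -0.94 with all libraries, it ran from -1.85 without control 2 to 2.105 without control 1. The class difference of 1.73 was 2.66 without Malat1 and 3.06 without Mir5109, and 1.21 to 2.15 with 1 library left out. Control depth limits all members, since 3 counts are 44.4 and 41.7 CPM there.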
